A study of Mus musculus with 12 samples.

Results

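A17.2, an shRNA against *Adam17*, was compared with a control shRNA in resting MC38CEA cells. MC38CEA is a mouse colon adenocarcinoma line that carries human carcinoembryonic antigen. The comparison rested on 6 of the 12 libraries of the series, 3 of A17.2 cells against 3 of control cells, all without cytokines, and it covered all genes of the count table. Libraries of the 2 kinds of cells were paired by the replicate number in their labels. The other 6 libraries came from the same 2 kinds of cells after stimulation with both IL1β and IFNγ (10 ng/ml, 6 h). They entered the low-count filter, the normalization and the estimates of the spread and of the replicate effects. They also entered the test of whether an effect differed with cytokines. Both kinds of cells were pools transduced with a lentiviral vector and selected with puromycin, grown in DMEM with FBS. One shRNA against *Adam17* was used, and libraries of untransduced cells were not analysed here. The control vector is given as SHC016, cytotoxic and losing its cassette, in the deposited notes, but as SHC002 in the methods of the study. The labels number biological replicates without saying whether cultures were separate. The p-values therefore reflect the spread between these libraries only, which may be technical. In bulk RNA, fewer cells with a transcript and less transcript per cell cannot be told apart.

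ADAM17 is a membrane-bound metalloprotease that sheds the extracellular part of many surface proteins, among them TNF, L-selectin and ligands of the EGF receptor. Released EGF receptor ligands act on the same or neighbouring cells, where receptor signalling through the MAP kinase ERK induces its own inhibitors of the Sprouty and dual-specificity phosphatase families. An shRNA is processed by Dicer into a small interfering RNA that guides an Argonaute protein to transcripts with a matching sequence. The gene lists below cover the EGF receptor system, the cell cycle, metabolism, the matrix and several gene families, with interferon genes given only as a count. They were chosen with earlier results of these data known.

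The deposited table held whole-number read counts for 43271 genes. Totals were 28230510, 28711959 and 27752707 counts in A17.2 libraries 1 to 3, against 35861103, 21235610 and 23690925 in control libraries 1 to 3. Libraries with the same number deviated together from their group means (r of 0.309 to 0.734 for the 3 unstimulated pairs). The 6 unstimulated pairs with different numbers ranged from -0.732 to 0.362, which overlaps. The fit had a term for the replicate number because the comparison was defined as paired by it. None of 16 colon epithelial markers passed the filter on low counts in these cells. *Vim*, a mesenchymal filament gene, stood at 2458 to 3755 CPM, where CPM is the usual depth-scaled count, here with TMM-adjusted library sizes. Of 11 fibroblast and stromal markers, *Vim* among them, 7 passed the filter. *Lum*, *Thy1*, *Fap* and *Acta2* did not, at no more than 0.187 CPM in any of the 6 libraries. Among 11 leukocyte and macrophage markers matched by name, 4 passed, with *Cd14* the highest at 17.9 to 46.4 CPM. Of 10 neuronal and muscle markers 3 passed, and none of 7 endothelial markers did. The defining markers of the labelled colon epithelium were thus absent or nearly so in both kinds of cells. Mitochondrially encoded genes took 2.93, 1.95 and 1.55% of counts in A17.2 libraries, against 2.56, 1.33 and 1.01% in control libraries, and the share was higher in A17.2 in every pair. The part of this difference in the results was not tested.

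Of 15649 genes tested, 2490 (15.9%) were higher and 2735 (17.5%) were lower in A17.2 cells at an adjusted p under 0.05 (edgeR quasi-likelihood test, Benjamini-Hochberg adjustment). Without the replicate term 447 (2.86%) were higher and 559 (3.57%) were lower, and 1006 genes passed in both fits. The changes were mostly small: 52.3% of the called genes differed by less than 1.5-fold, while 558 were at least 2-fold higher and 556 at least 2-fold lower. The shares of 15.9% and 17.5% are the background against which the counts for each list are read. Where a count without the replicate term is given for a list, its background is 2.86% and 3.57%.

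*Adam17* (ENSMUSG00000052593.16, chromosome 12, 21323509 to 21373632, GRCm38 with GENCODE M21) was lower in A17.2 cells. Its level was 30.8, 29.9 and 27.7 CPM in A17.2 cells, against 76.1, 68.4 and 76.4 CPM in control cells. The 3 A17.2 libraries all lay below the 3 control libraries, at 29.5 ± 1.56 CPM in A17.2 cells and 73.7 ± 4.54 CPM in control cells (SD, n = 3 each) (log2 fold change -1.32, standard error 0.10, adjusted p = 2.6e-07). Exons of *Iah1* on the other strand overlap those of *Adam17*, and the strand setting of the counts is not given in the sources used here, and *Iah1* had 61.1, 54.6 and 54.3 CPM against 70.6, 58.8 and 59.4 CPM in A17.2 and control cells (adjusted p = 0.22). *Adam10*, the closest relative of *Adam17* among the sheddases (ENSMUSG00000054693.14, chromosome 9, 70678997 to 70780229), had 22.1, 23.5 and 31.9 CPM in A17.2 cells, against 22.9, 25.8 and 33.3 CPM in control cells, a difference that did not pass the test (log2 fold change -0.08, standard error 0.10, adjusted p = 0.56). The study, by contrast, reported less ADAM10 in MC38CEA cells with A17.2, by RT-qPCR and western blot. The cause of this departure was not tested.

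Among well-measured genes outside the interferon list, several of the largest gains were in genes at under 1 CPM in control cells. *Ripk3*, the kinase that triggers necroptosis (ENSMUSG00000022221.14, chromosome 14, 55784995 to 55788865), had 16.4, 15.6 and 16.3 CPM in A17.2 cells, against 0.0529, 0.0473 and 0.128 CPM in control cells. The groups were far apart, with 1431 and 6 reads in all in the A17.2 and control libraries (log2 fold change 7.69, standard error 0.27, adjusted p = 1.2e-10). *Mlkl*, the executioner that RIPK3 phosphorylates and a gene chosen after its value was seen, was slightly lower at a log2 fold change of -0.27 (adjusted p = 0.046), and *Ripk1*, the upstream kinase, was at -0.23 (adjusted p = 0.1). *Vcan*, the large matrix proteoglycan versican (ENSMUSG00000021614.16, chromosome 13, 89655312 to 89742509), stood at 76, 51.9 and 73.5 CPM in A17.2 cells, against 0.687, 0.331 and 0.469 CPM in control cells (log2 fold change 6.99, standard error 0.19, adjusted p = 9e-12). *Cdkn2b*, the inhibitor p15INK4b of the cyclin D kinases (ENSMUSG00000073802.5, chromosome 4, 89306299 to 89311039), had 31.4, 23.2 and 28.2 CPM in A17.2 cells, against 0.82, 0 and 0.0852 CPM in control cells, with 2460 and 33 reads in all (log2 fold change 6.25, standard error 0.36, adjusted p = 4.4e-08). Its control reads lay almost wholly in replicate 1, and the log2 fold change was 9.02 without that library. *Slc27a6*, a fatty acid transporter, and *Acsl6*, which activates long-chain fatty acids, followed at log2 fold changes of 5.17 ± 0.24 and 4.29 ± 0.20 (± standard error here and below). Without control replicate 1 *Slc27a6* was at 6.13. *Mme*, a cell surface peptidase, reached 8.18, 10.9 and 13.4 CPM in A17.2 cells, against 1.06, 2.08 and 1.45 CPM in control cells (log2 fold change 2.84, standard error 0.20, adjusted p = 2e-07). *Itm2a*, *Slc14a1*, a urea transporter, *Tex101*, *Dtna* and *Lhx8*, a homeobox gene, were also among the 12, at 3.84 ± 0.25, 3.60 ± 0.23, 3.57 ± 0.37, 2.89 ± 0.19 and 2.76 ± 0.19. Without control replicate 1, *Itm2a* and *Tex101* were at 4.49 and 4.41. The last of the 12, *Col1a1*, is described with the collagens. The fit without the replicate term did not call *Mlkl* (adjusted p = 0.36).

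The largest losses included secreted signals, chemokines and a prolactin-like family. *Gng2*, a G protein gamma subunit (ENSMUSG00000043004.13, chromosome 14, 19872559 to 19977627), had 0.0936, 0.926 and 0.834 CPM in A17.2 cells, against 12.1, 14.1 and 10.4 CPM in control cells (log2 fold change -4.37, standard error 0.46, adjusted p = 7.7e-06). *Wnt5a*, a secreted ligand of non-canonical WNT signalling, had 6.8, 11.1 and 12.6 CPM in A17.2 cells, against 95.1, 87 and 80.5 CPM in control cells (log2 fold change -3.14, standard error 0.20, adjusted p = 8.1e-08). *Il33*, the alarmin of the IL1 family, had 1.62, 1.78 and 2.79 CPM in A17.2 cells, against 35.4, 19.5 and 19.8 CPM in control cells (log2 fold change -3.57, standard error 0.31, adjusted p = 1.5e-06). The groups of these 3 genes did not overlap, which the rule that named them required. *Irx1*, a homeobox gene, had 0, 1.82 and 2.28 CPM in A17.2 cells, against 22.5, 24.3 and 27.7 CPM in control cells, and A17.2 replicate 1 held no read. Its log2 fold change of -4.31 ± 0.57 was -3.73 without that library. *Aim2*, a cytosolic DNA sensor, was at -3.74 ± 0.48 (-3.11 without A17.2 replicate 1). *Cavin2*, a coat protein of caveolae, and *Capn6*, a calpain without protease activity, were at -3.35 ± 0.34 and -2.88 ± 0.32, each lowest in A17.2 replicate 1 (4.99, 18.5 and 21.4 CPM against 88.4, 148 and 175 CPM for *Cavin2* in A17.2 and control cells).

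**Figure D1:**
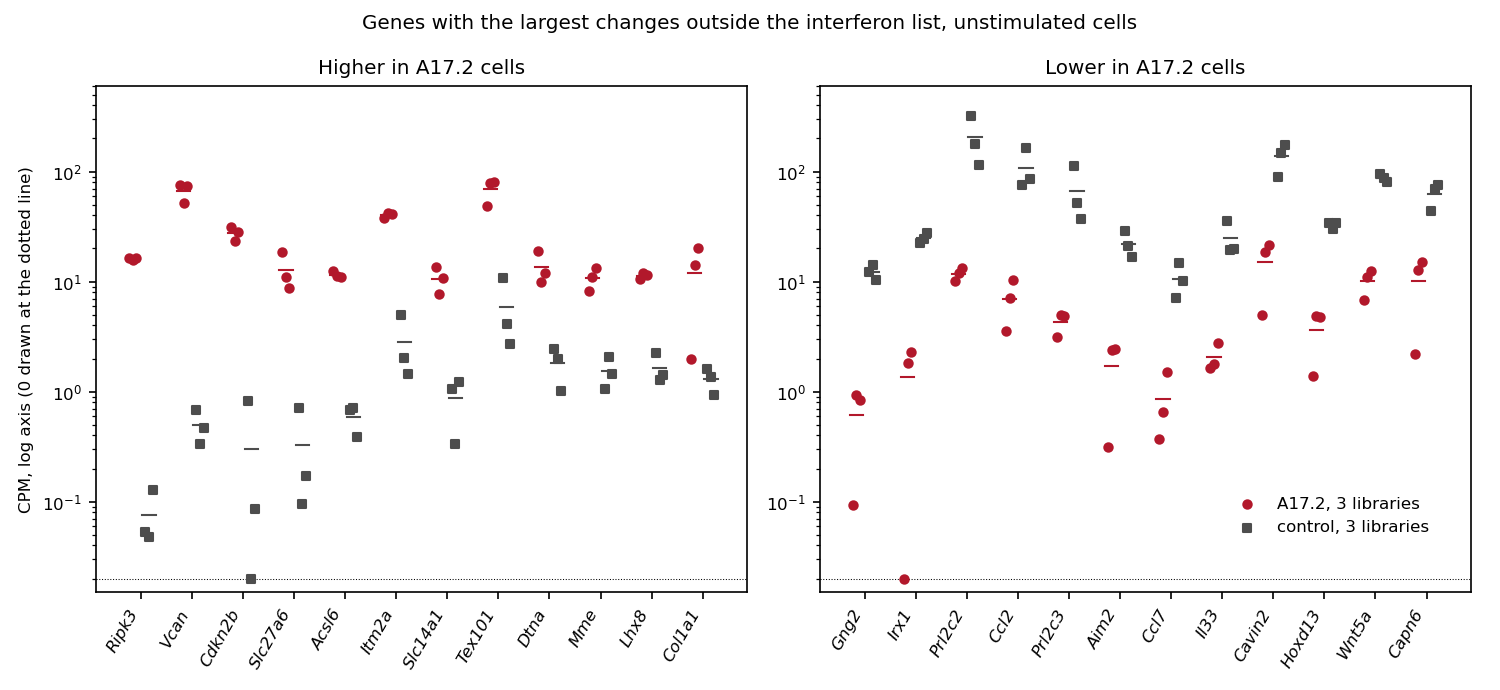
Levels in CPM (log axis) of the genes with the largest changes, per library, with A17.2 libraries left of control libraries. Short bars are means. Ripk3, Vcan and Cdkn2b stood at or under 0.82 CPM in control cells. Wnt5a, Il33 and Ccl2 were lower in every A17.2 library than in any control library, which the naming rule required.

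A ranking by the absolute shift in CPM takes abundant transcripts by its construction. *S100a4*, a calcium-binding protein linked to cell motility, lost the most: it had 258, 617 and 459 CPM in A17.2 cells, against 1401, 2038 and 1044 CPM in control cells (log2 fold change -1.83, standard error 0.22, adjusted p = 2.4e-05). *S100a6* and *S100a10*, of the same family, were lower at -0.88 ± 0.14 and -0.91 ± 0.16, with *Anxa1*, a phospholipid-binding annexin, at -0.91 ± 0.15. *Npc2*, which carries cholesterol out of lysosomes, and *Tpi1*, the glycolytic triosephosphate isomerase, were at -0.88 ± 0.11 and -0.96 ± 0.11. Among the gains, *Lama5*, a laminin chain of basement membranes, had 295, 203 and 263 CPM in A17.2 cells, against 72.9, 55 and 77.4 CPM in control cells (log2 fold change 1.89, standard error 0.12, adjusted p = 9.3e-08). *Car6*, a secreted carbonic anhydrase, was at 1.80 ± 0.29, and *Ier3*, an immediate early gene, at 1.12 ± 0.17. *Ptgs2*, the inducible cyclooxygenase COX-2, was at 0.98 ± 0.15, with 341, 306 and 356 CPM against 169, 159.8 and 178 CPM in A17.2 and control cells. The rule that ranked 40 genes by fold or by CPM shift took only genes called without the replicate term. *Col1a1*, one of them, lost its call when replicate 3 of every group was left out.

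Most genes of DNA replication were lower in A17.2 cells. Of 43 tested, 32 were lower and none was higher, with a median log2 fold change of -0.52 against 0.01 over all genes tested. In each numbered pair the median was below 0 (-0.60, -0.39 and -0.54), and 36 of the 43 were lower in all 3 pairs (83.7%, against 28.3% of all genes tested). Licensing factors gave 13 of 18, and polymerases and fork proteins 13 of 16. Without the replicate term 6 of the 43 were lower, and leaving out single libraries or numbers gave 24 to 32. *Rrm2*, the S phase subunit of ribonucleotide reductase, had 52.2, 126 and 103 CPM in A17.2 cells, against 198, 263 and 283 CPM in control cells (log2 fold change -1.49, standard error 0.14, adjusted p = 2.8e-06). *Lig1*, the ligase that joins Okazaki fragments, had 49, 74.5 and 78 CPM in A17.2 cells, against 98.6, 128 and 151 CPM in control cells (log2 fold change -0.92, standard error 0.08, adjusted p = 1.6e-06). *Gins1*, part of the replicative helicase, and *Tk1*, the S phase thymidine kinase, were at -0.94 ± 0.09 and -0.94 ± 0.09. Each of these genes had control libraries above the A17.2 library of the same number. The fit without the replicate term did not call *Rrm2*, *Lig1* and *Gins1* (adjusted p of 0.059 to 0.071).

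Promoters of replication genes often carry sites of E2F factors, which turn these genes on in late G1. Among the 250 bases before the start in RefSeq (GRCm38.p6), the letters TTTGGCGC, TTTCCCGC, TTTCGCGC or TTTGCCGC were found on either strand in 11 of the 35 replication genes with a promoter record (31.4%), against 379 of 9430 tested genes with one (4.02%). Of the 11, 9 were lower, and of the 24 without these letters, 16 were lower. A gene counted if any of its recorded promoters held the letters. By promoter, 11 of 42 held them, against 3.3% of all promoters. A match is a description of the letters only. The stretches below show the match in 5 genes that were lower, picked after their values were seen, with the matched letters or their reverse complement in capitals.
Cdc6 (chr11:98907988-98908045, plus strand): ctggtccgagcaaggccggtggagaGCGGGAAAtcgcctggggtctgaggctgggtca
Pola1 (chrX:93632261-93632318, minus strand): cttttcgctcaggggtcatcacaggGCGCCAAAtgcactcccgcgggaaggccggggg
Rfc3 (chr5:151651209-151651243, minus strand): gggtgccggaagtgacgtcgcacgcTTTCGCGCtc
Mcm5 (chr8:75109335-75109392, plus strand): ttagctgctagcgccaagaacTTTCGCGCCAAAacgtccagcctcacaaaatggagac
Mcm7 (chr5:138172016-138172073, minus strand): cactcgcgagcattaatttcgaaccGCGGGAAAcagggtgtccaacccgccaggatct
In *Mcm5* a pair of matches overlap. *Cdc6*, which loads the helicase, had 37.7, 53.6 and 45.1 CPM against 67.3, 86.7 and 68.7 CPM in A17.2 and control cells (-0.71), *Pola1*, the catalytic subunit of polymerase alpha, -0.81, and *Rfc3*, of the clamp loader, -0.61. The helicase subunits *Mcm5* and *Mcm7* were at -0.66 and -0.60. Of the genes named here, *Cdc6*, *Pola1*, *Rfc3*, *Mcm5* and *Mcm7* missed the threshold once the replicate term was dropped (adjusted p of 0.065 to 0.23).

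Among inhibitors of cyclin-dependent kinases, both genes of the *Cdkn2a* and *Cdkn2b* locus were higher. Besides *Cdkn2b*, *Cdkn2a* (ENSMUSG00000044303.6, chromosome 4, 89274471 to 89294653), its neighbour, which encodes p16INK4a and p19ARF, had 27.2, 23.4 and 22.8 CPM in A17.2 cells, against 16.8, 13.6 and 13.2 CPM in control cells (log2 fold change 0.75, standard error 0.09, adjusted p = 3.3e-05), with groups that did not overlap. *Cdkn1a*, the p53-induced inhibitor p21, was at -0.01 (adjusted p = 0.96). Among 23 p53 targets and regulators 4 were higher and 5 lower, close to the background, with 1 to 4 higher as libraries were left out. Of 32 mitotic genes 9 were lower and none higher (1 without the replicate term). That count was not stable: it was 16 without A17.2 replicate 1, and 17, 3 and 3 without replicate 1, 2 or 3 of every group. *Aurkb*, a kinase of chromosome segregation, was at -0.83 ± 0.09, *Cdk1* at -0.42 ± 0.08 and *Birc5* at -0.49 ± 0.08. Of 30 genes of the pentose phosphate pathway and nucleotide synthesis, 13 were lower and 2 higher (10 to 13 lower as libraries were left out, 2 lower without the replicate term). *Rrm1*, the large subunit of ribonucleotide reductase, was at -0.76 ± 0.09. When replicate numbers were left out of the fit, *Cdk1*, *Birc5* and *Rrm1* did not pass (adjusted p of 0.083 to 0.18).

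Most genes of glycolysis were lower. Of 25 genes of glycolysis and lactate handling, 16 were lower and none was higher, with a median of -0.42 and medians of -0.46, -0.45 and -0.38 in the 3 pairs. The count was 12 to 16 as libraries or numbers were left out, and 4 without the replicate term. *Slc16a3*, the lactate exporter MCT4, had 112, 151 and 148 CPM in A17.2 cells, against 414, 297 and 346 CPM in control cells (log2 fold change -1.35, standard error 0.14, adjusted p = 7e-06). *Ldha*, which makes lactate from pyruvate, had 532, 1057 and 1078 CPM in A17.2 cells, against 1173, 2072 and 2056 CPM in control cells (log2 fold change -1.02, standard error 0.12, adjusted p = 1.8e-05). *Pfkm*, a phosphofructokinase, was at -0.78 ± 0.09, and *Tpi1* is given above. *Slc2a1*, the main glucose transporter, was at 0.07 (adjusted p = 0.69). Among 17 genes of the hypoxia response, 8 were lower and 3 higher (3 and none without the replicate term). *Bnip3* and *Bnip3l*, mitophagy receptors, were at -0.97 ± 0.12 and -0.70 ± 0.09, and *Egln1*, an oxygen-dependent prolyl hydroxylase, at -0.66 ± 0.09, while *Car9*, a membrane carbonic anhydrase induced by HIF1, was higher at 1.34 ± 0.24. No library was labelled with an oxygen level. Without the replicate term, *Ldha*, *Pfkm*, *Bnip3l*, *Egln1* and *Car9* did not pass (adjusted p of 0.16 to 0.2).

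The letters ACGTG, part of the hypoxia response element, were present in at least 1 promoter of 13 of the 25 glycolysis and lactate genes (52.0%). This compares with 25.25% of the tested genes with a promoter record. By promoter, 16 of 39 held them, against 21.56% of all promoters. Of the 13 genes, 8 were lower, and of the other 12, 8 were lower. The matched letters are in capitals in 3 of the genes.
Slc16a3 (chr11:120949028-120949066, plus strand): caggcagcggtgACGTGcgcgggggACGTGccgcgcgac
Pfkm (chr15:98092429-98092483, plus strand): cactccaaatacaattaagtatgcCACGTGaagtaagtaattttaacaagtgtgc
Ldha (chr7:46845745-46845799, plus strand): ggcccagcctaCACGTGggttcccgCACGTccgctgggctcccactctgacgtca
*Slc16a3*, *Pfkm* and *Ldha* were picked after their values were seen. *Ldha* held 5 matches in the 250 bases.

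**Figure D2:**
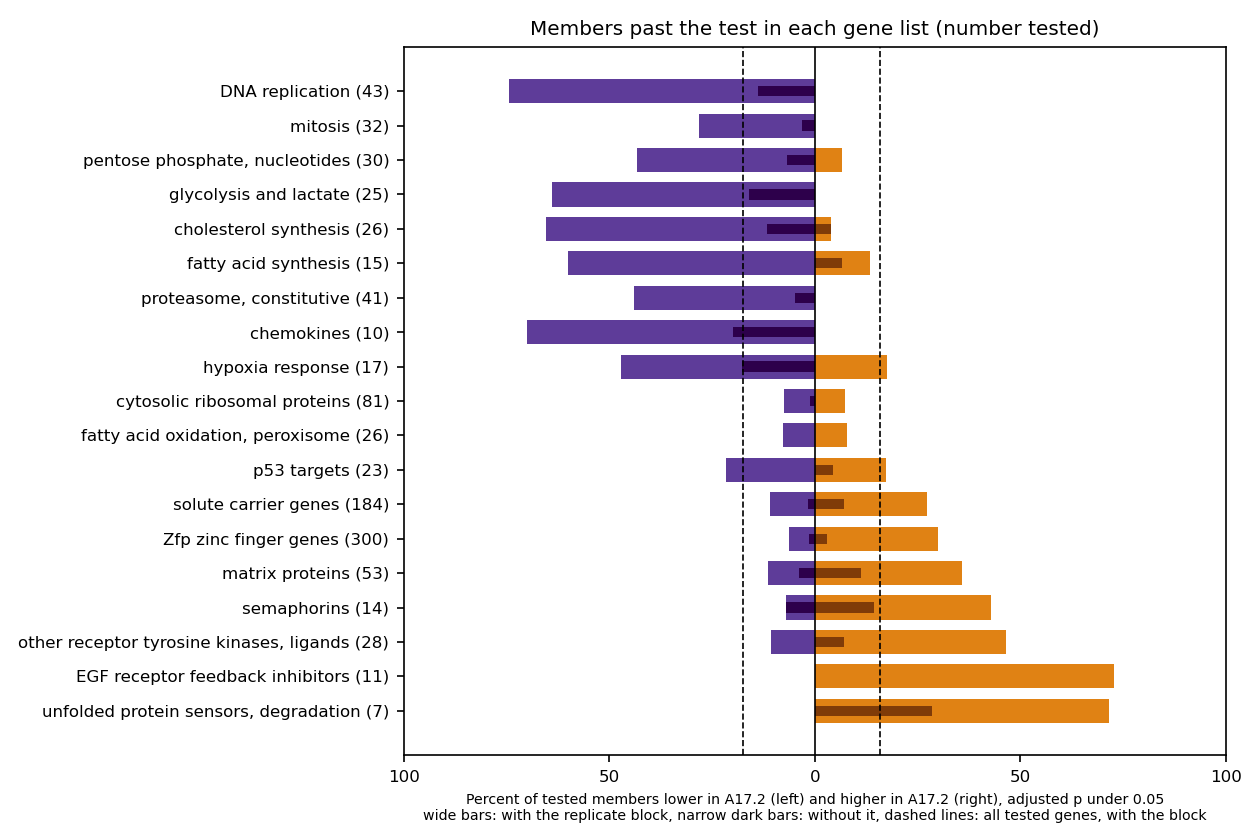
Share of tested members called higher and called lower in A17.2 cells, for each gene list, with the background of 15.9% and 17.5% over all genes drawn as lines. Narrow dark bars are the fit without the replicate term. DNA replication (32 of 43), glycolysis and cholesterol synthesis lie to the lower side, and the EGF receptor feedback inhibitors (8 of 11) to the higher side.

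Most enzymes of cholesterol synthesis were lower. Of 20 enzymes tested, 15 were lower and none was higher, with a median of -0.54. In all 3 pairs 16 of the 20 were lower (80%, against 28.3% of all genes tested). The count called lower was 11 to 16 as libraries were left out, and 3 without the replicate term. *Nsdhl*, which removes carbon groups from sterols, had 25.9, 44.7 and 57.7 CPM in A17.2 cells, against 84, 125 and 120.0 CPM in control cells (log2 fold change -1.41, standard error 0.13, adjusted p = 2.6e-06). *Fdft1*, the squalene synthase, had 46.9, 91.5 and 99.6 CPM in A17.2 cells, against 106, 176 and 192 CPM in control cells (log2 fold change -1.02, standard error 0.10, adjusted p = 3.9e-06), and exons of *Ctsb* overlap it on the other strand. *Pmvk* and *Mvd*, which complete the mevalonate steps, were at -1.01 ± 0.09 and -0.82 ± 0.09. Sterol response letters, TCACNCCA, stood in a promoter of 3 of the 18 cholesterol genes with a record (16.7%), against 4.0% of tested genes with one. By promoter, 3 of 22 held them, against 3.3% of all promoters. Of these 3 genes, 2 were lower, and of the other 15, 11 were lower. The letters are in capitals in *Hmgcs1*, the first committed synthase, and *Srebf2*, the regulator of the pathway, both picked after their values were seen.
Hmgcs1 (chr13:119690189-119690246, plus strand): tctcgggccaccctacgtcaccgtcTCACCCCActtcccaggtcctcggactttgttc
Srebf2 (chr15:82147082-82147139, plus strand): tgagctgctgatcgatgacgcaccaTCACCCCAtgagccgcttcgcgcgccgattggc
*Hmgcs1* was at -0.89 and *Srebf2* at -0.29. Of 15 genes of fatty acid synthesis, 9 were lower and 2 higher (5 lower without replicate 2 of every group, none lower without the replicate term). *Acly*, which makes cytosolic acetyl-CoA, and *Acaca*, which makes malonyl-CoA, were at -0.53 ± 0.10 and -0.76 ± 0.11, while *Acacb*, whose product restrains fatty acid oxidation, was at 1.40 ± 0.24. Among 26 genes of fatty acid oxidation and peroxisomes 2 were higher and 2 lower, below the background, with 0 to 5 lower as libraries were left out. When replicate numbers were left out of the fit, *Fdft1*, *Mvd*, *Hmgcs1*, *Srebf2*, *Acly* and *Acaca* did not pass (adjusted p of 0.14 to 0.56).

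**Figure D3:**
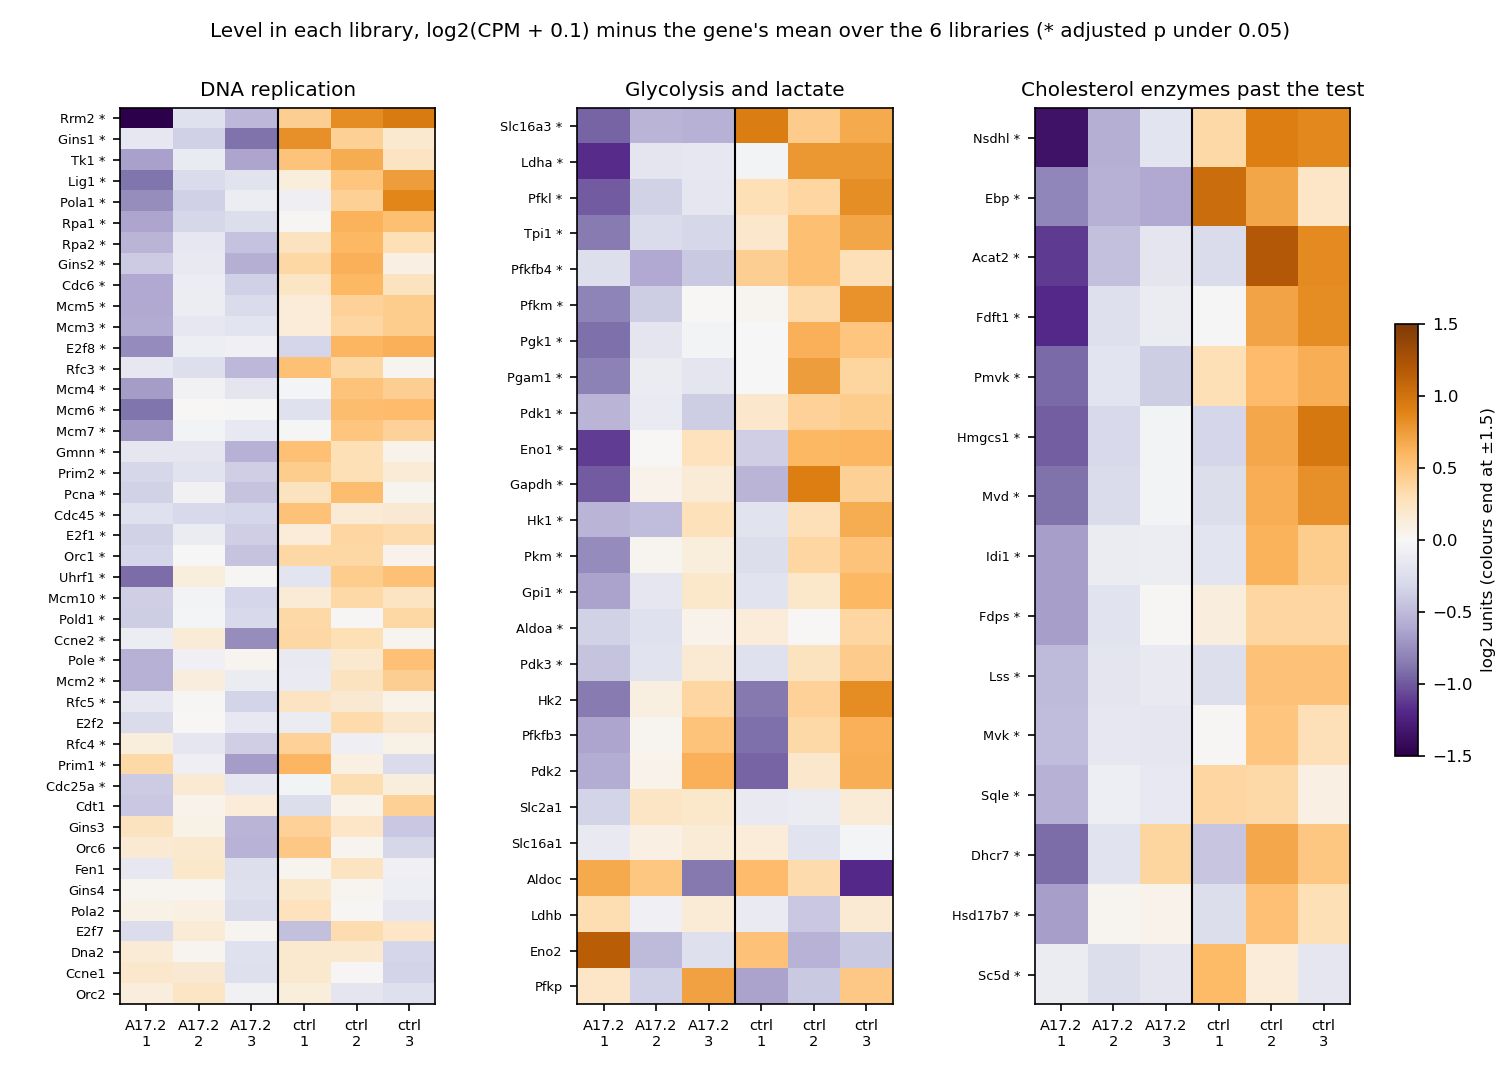
Level of each member relative to its mean over the 6 libraries, on the scale of log2(CPM + 0.1), for DNA replication, glycolysis and cholesterol synthesis, with A17.2 libraries left of control libraries. The cholesterol panel holds the enzymes that passed the test. Most rows are lower in A17.2 libraries than in the control library of the same number, and the summed level of each list was lowest in replicate 1 of both A17.2 and control cells.

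In the EGF receptor system, most feedback inhibitors were higher. Of 7 ligands tested, 3 were higher and 1, *Areg*, was lower, with 1 to 3 higher as libraries or numbers were left out. Of 20 genes tested, 12 were higher and 1 lower, and none passed without the replicate term. The count of higher genes was 8 to 11 as libraries or numbers were left out. Of 11 feedback inhibitors 8 were higher and none lower (5 higher without replicate 2 of every group). In all 3 pairs 9 of the 11 were higher (81.8%, against 28.1% of all genes tested). *Spry4*, an inhibitor of ERK signalling, had 5.62, 8.09 and 13.7 CPM in A17.2 cells, against 3.23, 4.39 and 4.94 CPM in control cells (log2 fold change 1.05, standard error 0.16, adjusted p = 0.00014). *Dusp6*, the cytoplasmic phosphatase of ERK, was at 0.68 ± 0.11, and *Dusp5*, a nuclear ERK phosphatase, at 0.86 ± 0.13. *Areg*, amphiregulin, a ligand that ADAM17 releases, had 5.65, 5.08 and 5.08 CPM in A17.2 cells, against 12.1, 11.9 and 13.8 CPM in control cells (log2 fold change -1.27, standard error 0.31, adjusted p = 0.005, 0.14 without the replicate term). *Erbb3*, a receptor that pairs with ERBB2, was higher at 0.86 ± 0.14, and *Erbb2* was at -0.06 (adjusted p = 0.67). *Egfr*, *Tgfa* and *Erbb4* did not pass the filter on low counts, with *Egfr* at 0 to 0.181 CPM and *Tgfa* at 0 to 0.0945 CPM over the 6 libraries. The receptor that binds most of these ligands was thus at or near the detection limit in both kinds of cells. The fit without the replicate term did not call *Spry4*, *Dusp6*, *Dusp5* and *Erbb3* (adjusted p of 0.11 to 0.2).

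Other receptor tyrosine kinases and their ligands were higher in 13 of 28 cases and lower in 3. The count of higher genes was 8 without A17.2 replicate 2, 8 and 6 without replicate 2 or 3 of every group, and 2 without the replicate term. *Pros1*, protein S, a ligand of the TAM receptors, had 18, 14.9 and 18.2 CPM in A17.2 cells, against 6.03, 5.29 and 3.49 CPM in control cells (log2 fold change 1.82, standard error 0.18, adjusted p = 5.2e-06). *Igf2*, insulin-like growth factor 2, had 0.999, 7.51 and 9.57 CPM in A17.2 cells, against 0.634, 1.42 and 2.05 CPM in control cells (log2 fold change 1.95, standard error 0.29, adjusted p = 0.00014), and transcripts on the other strand overlap it. *Kitl*, the ligand of KIT, and *Pdgfc* were at 0.95 ± 0.15 and 0.67 ± 0.10. *Hgf*, the ligand of MET, had 0, 0 and 0.109 CPM in A17.2 cells, against 0.106, 0.898 and 0.937 CPM in control cells, with 3 and 45 reads in all, too few for a firm fold. *Pdgfrb*, a PDGF receptor, was lower at -0.80 ± 0.18. WNT pathway genes gave 5 higher and 4 lower of 29, close to the background (1 and 3 without the replicate term). As libraries or numbers were left out, 3 to 5 were higher and 3 to 7 lower. Among them, *Wnt6* was lower at -2.10 ± 0.33 and *Fzd8*, a WNT receptor, higher at 1.26 ± 0.18. Of 35 genes in the TGF-beta and BMP list, 9 were higher and 9 lower (1 and 1 without the replicate term). Only 3 were higher without replicate 3 of every group, and 4 without control replicate 3. The higher count was 5 without A17.2 replicate 1 or 3 or replicate 2 of every group. Replicate 2 of every group left out also gave 5 lower. *Fst*, follistatin, an activin antagonist, had 3.59, 1.58 and 1.96 CPM in A17.2 cells, against 0.555, 0.284 and 0.298 CPM in control cells (log2 fold change 2.62, standard error 0.28, adjusted p = 6.8e-06), while *Inhba*, the activin A subunit, was lower at -1.42 ± 0.16. *Gdf15*, a stress-induced member of the family, had 7.18, 3.36 and 2.47 CPM in A17.2 cells, against 0.82, 0.142 and 0.511 CPM in control cells (log2 fold change 3.25, standard error 0.41, adjusted p = 3.3e-05). Of the genes named here, *Igf2*, *Kitl*, *Pdgfc*, *Pdgfrb* and *Gdf15* missed the threshold once the replicate term was dropped (adjusted p of 0.059 to 0.34).

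Of 45 axon guidance genes, 17 were higher and 8 lower (4 and 3 without the replicate term), and 6 of 14 semaphorins were higher against 1 lower (2 and 1 without the replicate term). Without replicate 3 of every group 11 were higher and 5 lower, and 5 were lower too without replicate 2 of A17.2 cells, of control cells or of every group. *Sema3b* had 60.7, 41 and 40.9 CPM in A17.2 cells, against 23.9, 13.2 and 12.4 CPM in control cells (log2 fold change 1.56, standard error 0.11, adjusted p = 1.5e-07), while *Sema3a*, the classical repellent, had 40.3, 33.9 and 41.6 CPM in A17.2 cells, against 83.6, 75 and 94.9 CPM in control cells (log2 fold change -1.13, standard error 0.10, adjusted p = 1.8e-06). *Sema3c* was higher at 1.08 ± 0.15. *Sema6d* was higher, with 110 and 2 reads in all in the A17.2 and control libraries. *Ephb6*, an Eph receptor without kinase activity, was lower at -2.93 ± 0.39. *Robo2*, a SLIT receptor, was at -3.95, and between -4.81 and -2.35 as libraries were left out (-2.51 without A17.2 replicate 1, -3.27 without control replicate 1, -4.75 and -4.67 without A17.2 replicate 2 or 3). When replicate numbers were left out of the fit, *Sema3c* did not pass (adjusted p = 0.27).

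Of 53 matrix genes, 19 were higher and 6 lower (6 and 2 without the replicate term), above the background of 15.9% for higher genes and below that of 17.5% for lower genes. The number higher was 11 without replicate 3 of every group. Basement membrane genes gave 7 higher of 14 and none lower (4 higher without replicate 2 or 3 of every group, 2 without the replicate term). *Col18a1*, whose product yields endostatin, was at 1.08 ± 0.13, and *Col12a1*, a fibril-associated collagen, at 1.18 ± 0.15. The 2 chains of collagen I went opposite ways. *Col1a1* had 1.97, 14.1 and 20.2 CPM in A17.2 cells, against 1.61, 1.37 and 0.937 CPM in control cells (log2 fold change 2.69, standard error 0.57, adjusted p = 0.0021), and without replicate 3 of every group its log2 fold change of 1.85 did not pass (adjusted p = 0.052). It was 3.72 without control replicate 1 and 2.06 without control replicate 3. *Col1a2* had 6.77, 87.2 and 84.2 CPM in A17.2 cells, against 441, 315 and 220.4 CPM in control cells (log2 fold change -2.85, standard error 0.74, adjusted p = 0.008, 0.14 without the replicate term), and -2.04 without A17.2 replicate 1, -2.00 without control replicate 1 and -3.45 without control replicate 3. A17.2 replicate 1 stood apart from the other A17.2 libraries for both chains and for *Irx1*, *Capn6*, *Igf2*, *Cavin2* and *Hoxd13*. The part of this library in other results is given where its omission changed a call. Without the replicate term, *Col12a1* did not pass (adjusted p = 0.2).

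Most proteases of the ADAMTS family, which cut the matrix, were higher. Of 8 ADAMTS genes, 5 were higher and 2 lower (4 and 0 without the replicate term), with 4 to 5 higher as libraries were left out. The number lower was 0 without A17.2 replicate 3, without control replicate 2 and without replicate 2 of every group. *Adamts12* had 2.9, 3.19 and 4.82 CPM in A17.2 cells, against 0.264, 0.803 and 0.767 CPM in control cells (log2 fold change 2.65, standard error 0.26, adjusted p = 4.2e-06). *Adamts1* and *Adamts5*, which cut versican and aggrecan, were at 1.40 ± 0.15 and 1.97 ± 0.33. Of the matrix metalloproteases, *Mmp3*, stromelysin-1, had 0.0312, 0.137 and 0.145 CPM in A17.2 cells, against 0.159, 2.69 and 2.0 CPM in control cells (log2 fold change -3.87, standard error 0.41, adjusted p = 7.3e-06), and *Mmp2*, gelatinase A, was at -0.72 ± 0.12, both lower in A17.2 cells. *Mmp19* was higher at 1.95 ± 0.31, and it shares its position with a gene on the other strand. Among integrins *Itga3*, a laminin receptor subunit, had 7.43, 7.34 and 7.58 CPM in A17.2 cells, against 34.5, 38.7 and 44.7 CPM in control cells (log2 fold change -2.39, standard error 0.11, adjusted p = 4.2e-09), and *Itga6*, another laminin receptor subunit, had 8.52, 7.65 and 9.43 CPM in A17.2 cells, against 2.64, 2.93 and 3.2 CPM in control cells (log2 fold change 1.55, standard error 0.16, adjusted p = 7.7e-06). The groups did not overlap for either. The fit without the replicate term did not call *Mmp3* (adjusted p = 0.1).

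**Figure D4:**
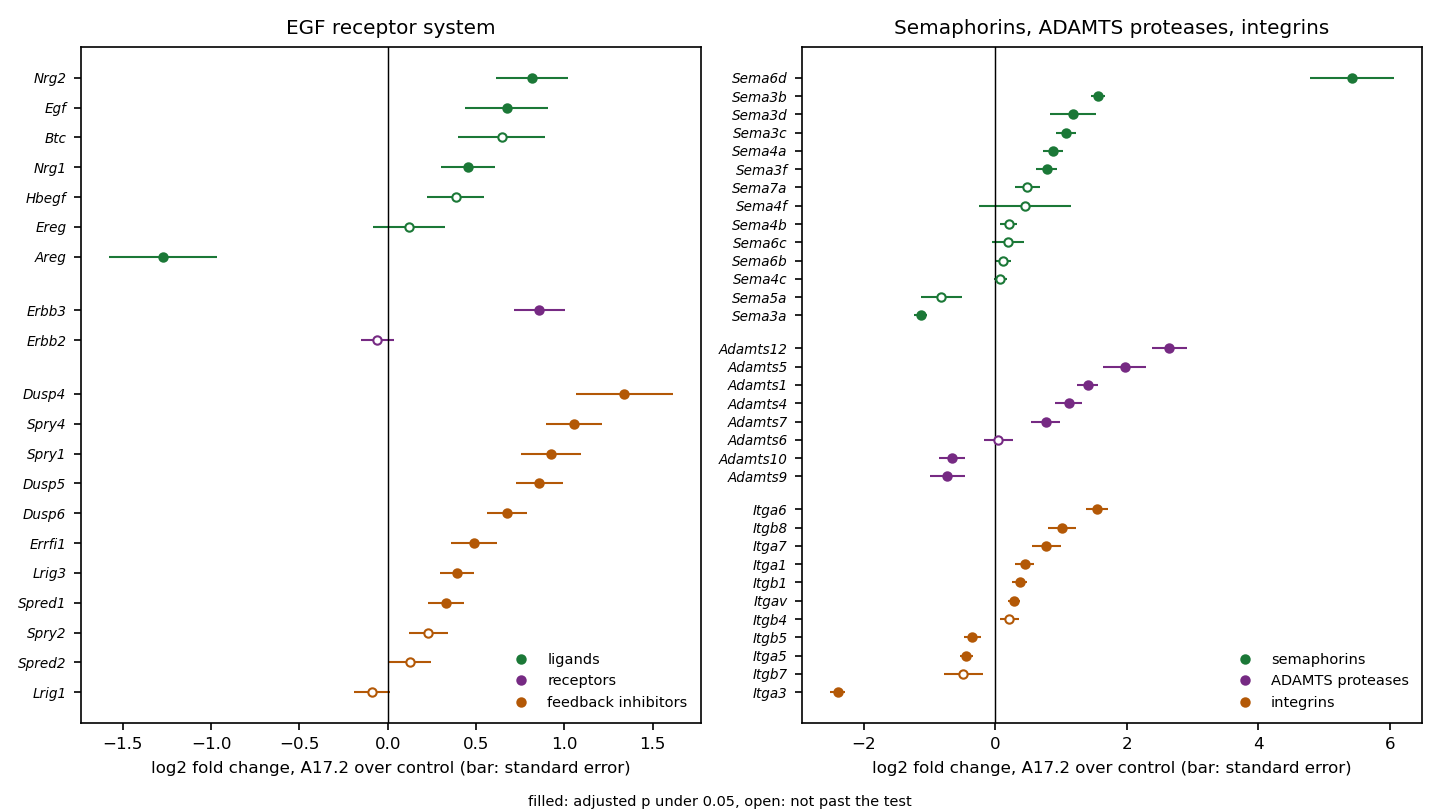
Log2 fold change of A17.2 over control, with standard error, for the EGF receptor system (left) and for semaphorins, ADAMTS proteases and integrins (right). Positive values are higher in A17.2 cells, filled points passed the test, and 8 of the 11 feedback inhibitors are filled and positive.

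Of 10 chemokines, 7 were lower and none was higher (2 lower without the replicate term, 4 without replicate 2 of every group). *Ccl2* (ENSMUSG00000035385.5, chromosome 11, 82035571 to 82037453), which attracts monocytes, had 3.59, 7.1 and 10.3 CPM in A17.2 cells, against 75.7, 163 and 85.1 CPM in control cells (log2 fold change -3.92, standard error 0.39, adjusted p = 4.7e-06). Every A17.2 library lay below every control library, which the rule that named the gene required. *Ccl7*, the neighbouring monocyte chemokine (ENSMUSG00000035373.2, chromosome 11, 82045712 to 82047525), was at -3.64 ± 0.28, and at -4.32 without A17.2 replicate 3. *Il15*, a cytokine of NK and T cells, was lower at -2.46 ± 0.19, and *Il6st*, the shared receptor subunit gp130, higher at 0.47 ± 0.08. NF-kB pathway genes gave 5 higher and 6 lower of 28, close to the background (0 and 4 without the replicate term). As libraries or numbers were left out, 2 to 4 were higher and 5 to 9 lower. Of the 8 NF-kB inhibitors among them, 3 were lower in both fits (5 without control replicate 3) and 1 was higher with the replicate term. *Nfkbie* had 11.1, 14.2 and 15.3 CPM in A17.2 cells, against 26.5, 31.4 and 27.1 CPM in control cells (log2 fold change -1.08, standard error 0.12, adjusted p = 1e-05). *Nfkbia* and *Tnfaip3* were at -0.93 ± 0.15 and -1.32 ± 0.24. Of 111 interferon genes, 92 were lower and 2 higher (median -1.42). When replicate numbers were left out of the fit, *Il6st* did not pass (adjusted p = 0.19).

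Sensors and degradation factors of the unfolded protein response were higher in 5 of 7 cases, with none lower (2 higher without the replicate term, 5 as any library was left out). *Sel1l*, an adaptor of ER-associated degradation, had 187, 139 and 179 CPM in A17.2 cells, against 113, 71.9 and 93.5 CPM in control cells (log2 fold change 0.87, standard error 0.09, adjusted p = 4.2e-06). *Atf6*, a sensor that is cleaved to a transcription factor, was at 0.87 ± 0.09. *Syvn1*, the ligase HRD1, was at 0.67 ± 0.10, and *Xbp1*, the target of IRE1 splicing, at 0.51 ± 0.08. Of 14 chaperones and folding enzymes of the same list, 2 were higher and 4 lower, with a median of -0.20 (1 to 3 higher and 0 to 6 lower as libraries were left out, none in either direction without the replicate term). *Hspa5*, the chaperone BiP, was at 0.29 (adjusted p = 0.071). Without the replicate term, *Syvn1* and *Xbp1* did not pass (adjusted p of 0.12 to 0.17).

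Enzymes of adenosine and drug metabolism moved in both directions. Of 12 genes of adenosine and purine signalling 3 were higher and 5 lower (3 lower without replicate 2 of every group), and of 24 of xenobiotic and prodrug metabolism 9 were higher and 8 lower (4 and 3 without the replicate term, against 3 and 3 for the purine genes). *Nt5e*, CD73, which makes adenosine from AMP, was at 3.5, 4.7 and 6.56 CPM in A17.2 cells, against 0.0529, 0 and 0.17 CPM in control cells, with 430 and 6 reads in all (log2 fold change 5.92, standard error 0.41, adjusted p = 1.5e-07, 6.76 without control replicate 3). *P2rx7*, an ATP-gated channel, was higher at 1.09 ± 0.16. *Ada* and *Pnp*, which clear adenosine and inosine, were lower at -0.90 ± 0.11 and -1.07 ± 0.13. *Enpp2*, autotaxin, which makes lysophosphatidic acid, was lower at -1.98 ± 0.40. *Dpyd*, dihydropyrimidine dehydrogenase, which breaks down fluorouracil, had 4.59, 2.95 and 6.35 CPM in A17.2 cells, against 0.0793, 0.142 and 0.17 CPM in control cells (log2 fold change 5.17, standard error 0.32, adjusted p = 8.1e-08). *Ahr*, the aryl hydrocarbon receptor, had 8.9, 5.66 and 8.23 CPM in A17.2 cells, against 1.32, 1.56 and 2.22 CPM in control cells (log2 fold change 2.19, standard error 0.19, adjusted p = 1.3e-06), and its target *Cyp1b1* was at 3.24 ± 0.53. The paraoxonase *Pon2* had 2.5, 2.26 and 2.32 CPM in A17.2 cells, against 28, 14.1 and 11.2 CPM in control cells (log2 fold change -2.83, standard error 0.23, adjusted p = 6.3e-07), and *Mgst1*, a microsomal glutathione transferase, was at -1.29 ± 0.17. Of 18 iron and copper genes, 4 were higher and 3 lower (2 and 2 without the replicate term), and the 2 multicopper ferroxidases of this list went opposite ways. *Cp*, ceruloplasmin, was lower at -2.82 ± 0.32, and at -3.43 without replicate 3 of every group. *Heph*, hephaestin, was higher, at 9.71, 5.38 and 6.27 CPM in A17.2 cells, against 0, 0 and 0.0426 CPM in control cells, with 641 and 1 reads in all. *Ctsh*, a lysosomal protease, was higher at 1.60 ± 0.15, and *Npc1*, the partner of *Npc2* in cholesterol export, at 0.67 ± 0.09. The fit without the replicate term did not call *Cyp1b1* (adjusted p = 0.1).

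The RNA interference machinery itself, through which an shRNA works, had 3 of 13 genes higher, in both fits, and 2 lower with the replicate term. Left out singly, each library brought the lower count to 1. *Dicer1* had 62.9, 64.3 and 65.7 CPM in A17.2 cells, against 38.2, 42.4 and 46.6 CPM in control cells (log2 fold change 0.60, standard error 0.09, adjusted p = 8.8e-05), without overlap between the groups. *Ago3*, an Argonaute, and *Tnrc6c*, a GW182 protein that represses targets, were at 0.84 ± 0.14 and 0.66 ± 0.09, while *Tarbp2*, a partner of Dicer, was lower at -0.67 ± 0.10. Of the genes named here, *Tarbp2* missed the threshold once the replicate term was dropped (adjusted p = 0.12).

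The 4 tested Prl2c genes, proliferin genes known from mouse placenta and growing fibroblasts, were all lower in both fits. *Prl2c2* (ENSMUSG00000079092.4, chromosome 13, 12996125 to 13005383) had 10.1, 12.1 and 13.2 CPM in A17.2 cells, against 319.9, 179 and 115 CPM in control cells (log2 fold change -3.96, standard error 0.25, adjusted p = 8.1e-08), and *Prl2c3* (ENSMUSG00000056457.6, chromosome 13, 12790816 to 12800079) was at -3.79 ± 0.29 (-3.18 without replicate 1 of every group). These genes are near-identical copies, so reads could be split between them, and their values are uncertain as single genes. Among 27 Hox genes 8 were lower, 5 without replicate 2 of A17.2 cells, of control cells or of every group, and 4 without the replicate term. The 6 called higher fell to 1 without replicate 1 of A17.2 cells, of control cells or of every group, and to 3 without A17.2 replicate 2, control replicate 3 or replicate 2 of every group. *Hoxd13*, *Hoxd10* and *Hoxd9*, neighbours on chromosome 2, were lower, and *Hoxd10* (ENSMUSG00000050368.4, chromosome 2, 74691924 to 74695105) had 2.4, 1.44 and 1.49 CPM in A17.2 cells, against 6.79, 4.68 and 3.84 CPM in control cells (log2 fold change -1.52, standard error 0.19, adjusted p = 3.3e-05). *Hoxd13* was at -3.26 ± 0.31 and *Hoxd9* at -1.02 ± 0.16. Of 184 solute carrier genes, 50 were higher and 20 lower (13 and 3 without the replicate term, 33 and 28 higher without replicate 2 or 3 of every group, and 11 lower without replicate 2 of every group). *Slc6a15*, a neutral amino acid transporter, and *Slc7a2*, a carrier of cationic amino acids, were at 1.22 ± 0.10 and 1.03 ± 0.10. *Slc4a7*, a bicarbonate carrier, was lower at -1.22 ± 0.12. *Pcdh9* and *Pcdh17*, protocadherins of cell contact, were lower at -2.10 ± 0.18 and -1.67 ± 0.14.

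Of 300 zinc finger genes named Zfp, 90 were higher and 19 lower (9 and 4 without the replicate term). The median was 0.22, 163 were higher in all 3 pairs (54.3%, against 28.1% of all genes tested), and 57 were higher without A17.2 replicate 1 (49, 50 and 50 without replicate 1, 2 or 3 of every group, with 12 lower without replicate 2 or 3). *Zfp35* was at 1.44 ± 0.12 and *Zfp317* at 1.11 ± 0.13, while *Zfp395* was at -1.64 ± 0.18. Of 41 constitutive proteasome genes, none was higher and 18 were lower (8 without replicate 3 of every group, 2 without the replicate term). *Psmd1*, the largest subunit of the regulatory particle, was at -0.66 ± 0.10, and *Psma5*, of the core ring, at -0.63 ± 0.09. Cytosolic ribosomal genes gave 6 higher and 6 lower of 81, below the background, with 1 to 7 higher and 6 to 11 lower as libraries were left out. The share of called genes moved with transcript length. Genes were split into 5 equal groups by the length of their longest GENCODE M21 transcript. In the shortest group (55 to 1037 bases) 5.08% were higher and 16.7% lower, and in the longest group (4755 to 123179 bases) 23.7% were higher and 13.7% lower. Zfp transcripts had a median of 3684 bases, against 1883 for proteasome genes, 3128 for DNA replication, 2879 for glycolysis and 4021.5 for the EGF receptor system. The median was 5614 for matrix genes, 5095 for axon guidance, 4265.5 for the other receptor tyrosine kinases and ligands, and 3492.5 for cholesterol synthesis. The part of length in these counts was not tested. Without the replicate term, *Zfp395*, *Psmd1* and *Psma5* did not pass (adjusted p of 0.18 to 0.35).

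**Figure D5:**
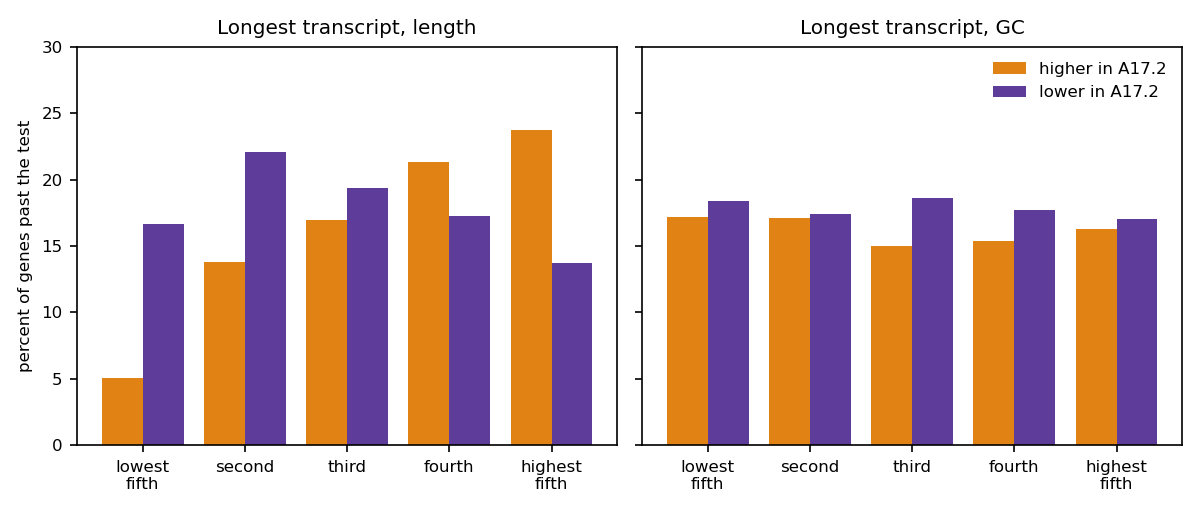
Share of genes called higher and called lower in A17.2 cells in 5 equal groups by transcript length (left) and by GC content (right). The share called higher is 5.08% in the shortest group and 23.7% in the longest, while the GC groups show no such trend.

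The effect of A17.2 without cytokines was set against that in the stimulated cells by a test of the difference itself. The difference, without minus with cytokines, passed for 65 of the 15649 genes and was positive for 1 and negative for 64. The positive one was *Nab2*, a corepressor of EGR factors named after its value was seen, at 0.80 (adjusted p = 0.0081), with a log2 fold change of 0.02 without cytokines and -0.78 with them. Genes that did not pass this test are not shown to respond alike.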

How the data were processed

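Poly(A) RNA of MC38CEA cells was sequenced with an Ion total RNA library kit. The authors deposited raw whole-number read counts per gene symbol for 12 libraries, without normalization, on mm10 according to the submitters' notes. Which aligner, counter and strand setting were used is not given in the sources used here. Overlap with genes on the other strand is not noted above for every gene. Exons of tested genes there also overlap *Wnt5a*, *Tpi1*, *Tk1*, *Pfkm*, *Car9*, *Syvn1* and *Cp*. The deposited comparison tables, 2 in number, hold log2 fold changes and p-values and were not used. All 12 count columns carry the title of a library. R 4.3.3 and edgeR 4.0.16 were used. The table lists 43271 genes, 10997 of them without a read, and edgeR's default filter kept 15649. The test was edgeR's quasi-likelihood test with TMM normalization over the 4 groups of 12 libraries, with the replicate number as a block, at an adjusted p (Benjamini-Hochberg) under 0.05. The methods of the study state no test for these data.

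Pairing rests on the replicate numbers in the labels. After removal of group means, libraries sharing a number correlated (18 pairs, 0.309 to 0.850, each above the threshold of 0.1), whereas those with different numbers ranged over -0.751 to 0.455 (36 pairs). The ranges overlap, and some pairs with different numbers also lay above 0.1, so the threshold cannot separate the kinds of pairs. Replicates differed by more than sampling noise, with chi-square values of 32.0 to 209.6 per degree of freedom. The common dispersion was 0.0110 with the block and 0.0795 without it. Standard errors were derived from the quasi-likelihood F. Fitted fold changes of genes with few counts depend on the prior count.

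Named were *Adam17* and *Adam10*; the 12 highest and 12 lowest log2 fold changes, and the 8 largest gains and losses in CPM, among called genes with at least 10 CPM, no overlap between groups, 1 direction in all 3 pairs and a call without the block, leaving out predicted and interferon genes; up to 4 called members of each list and direction with the lowest adjusted p; and defining members that did not pass. Results for some genes that these rules took are not reported here. The members, lists and rules were chosen with earlier results of these data known. Lists are described by counts, with no set test. Promoters were taken from RefSeq tables on GRCm38.p6, and positions from GENCODE M21, in which 95.5% of tested genes had a name. The alternatives were the fit without the block, DESeq2 1.42.0, its size factors, no low-count filter, a minimum of 50 counts in 3 libraries, the 6 unstimulated libraries only, a 2-fold minimum, and leaving out each library or replicate number. The tests were tried on simulated counts.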

Additional observations from a re-analysis of the deposited data

Results flagged for a closer look

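For 3 genes named by the rules of the report, the effect of A17.2 differed between unstimulated and cytokine-stimulated cells by edgeR's interaction test. The log2 difference of the effect, without minus with cytokines, was -0.9165 for *Rnf213*, an interferon-induced ubiquitin ligase (adjusted p = 0.037), -1.384 for *Il15* (adjusted p = 0.019) and -0.8106 for *Steap2*, a metalloreductase (adjusted p = 0.011). Each was thus lower relative to control without cytokines than with them, over 3 numbered pairs in each state.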

How the results depend on the processing

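With the replicate block 2490 genes were higher and 2735 lower, and without the replicate block 447 and 559. A 2-fold minimum left 558 higher and 556 lower. Leaving out single libraries or replicate numbers gave 1566 to 2244 higher and 1665 to 2503 lower. DESeq2 with the block gave 2398 and 2809, DESeq2's size factors 2418 and 2816, no filter 2506 and 2568, at least 50 counts 2322 and 2552, and the 6 unstimulated libraries alone 1828 and 1960. *Adam17* stayed lower under all of these, at -1.38 to -1.22 as libraries or numbers were left out. Higher genes outnumbered lower ones with the 2-fold minimum, without replicate 2 of every group (1733 and 1665) and without control replicate 2 (2244 and 2077). Of 134 list counts, 32 stayed within 1.5 times without the block, 130 with DESeq2, 132 with its size factors, 125 with no filter, 124 with the stricter filter, 111 with the 6 libraries alone, 107 to 120 without 1 library, and 112, 86 and 90 without replicate 1, 2 or 3 of every group. Of 385 called genes that the naming rule took, 105 lost the call without at least 1 library or number, 280 kept it throughout, and 156 also passed without the block. With 3 libraries a group, small changes rest on the pairing, and genes with few counts, such as *Egfr*, could not be compared.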
